A study of Mus musculus with 3 samples.

Results

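The 10 genes described here belong to innate immune sensing and to its main transcription factor pathway, and were followed in ribosome-bound RNA of the mouse brain after a stroke. They are the toll-like receptor genes Tlr2, Tlr3, Tlr4 and Tlr7, the adaptor gene Myd88, the NF-kB subunit genes Nfkb1 and Nfkb2, the inhibitor genes Nfkbia and Tnfaip3, and the adhesion molecule gene Icam1. All 10 were chosen by name, were found among the 16610 genes of the deposited table and passed the filter on low values, which kept 14906 genes. Middle cerebral artery occlusion (MCAO) blocks a large brain artery and is a common stroke model. Here it lasted 1 h, and all tissue was taken after 3 days. The control group was the right hemisphere of mice without MCAO, the contralateral group the right hemisphere of MCAO mice, and the MCAO group the left, occluded hemisphere. Each group was 1 library from a pool of 3 animals, made from the middle section of the hemisphere by a RiboTag pull-down, in which a tagged ribosomal protein is precipitated with the transcripts it carries. The title speaks of astrocytes, but the labels give no driver of the tag, no strain and no age. With 1 library per group there is no replicate check of any difference, and p-values were not computed. A left hemisphere without MCAO is not among the groups, so side and occlusion cannot be told apart.

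Toll-like receptors bind microbial molecules and molecules released by damaged tissue. Most of them signal through the adaptor MyD88, while Tlr3, a sensor of double-stranded RNA, uses the adaptor TRIF. Both routes free NF-kB dimers from inhibitors such as IkB-alpha (Nfkbia), and the dimers enter the nucleus and bind DNA elements called kB sites. NF-kB induces its own inhibitors, among them IkB-alpha and the ubiquitin-editing enzyme A20 (Tnfaip3), which end the response. In the brain, microglia carry most of the toll-like receptors, whereas the Icam1 protein is best known on activated endothelium.

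To show the kB sites in this group, the 250 bases before each RefSeq start site (build GRCm38.p6) were searched on both strands. The motifs were the NF-kB consensus of 10 letters and the 9-letter form GGNNNTTCC, which a match to the first often also matches. Promoters were matched for 7 of the 10 genes, all but Tlr4, Tlr7 and Nfkb1. The consensus was found in 5 of the 7 (Tlr2, Tlr3, Nfkb2, Nfkbia and Tnfaip3), and in 5.61% of the 11328 tested genes that had a promoter. The 9-letter form was found in 6 of the 7, Icam1 added, and in 20.6% of those genes. Neither was found in the Myd88 window. Genes with several start sites were counted once. The windows of both feedback inhibitors and of Icam1 are printed because these genes are set beside each other below as feedback inhibitors and as a target. Capitals mark matches to either motif, and each is read 5′ to 3′ towards its gene.
Nfkbia, chr12:55492648-55492897, minus strand: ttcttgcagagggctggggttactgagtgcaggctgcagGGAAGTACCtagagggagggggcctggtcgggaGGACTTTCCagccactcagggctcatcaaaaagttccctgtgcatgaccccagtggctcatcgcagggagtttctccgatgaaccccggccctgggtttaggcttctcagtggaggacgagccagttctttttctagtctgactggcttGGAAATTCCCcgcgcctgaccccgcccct
Tnfaip3, chr10:19015411-19015660, minus strand: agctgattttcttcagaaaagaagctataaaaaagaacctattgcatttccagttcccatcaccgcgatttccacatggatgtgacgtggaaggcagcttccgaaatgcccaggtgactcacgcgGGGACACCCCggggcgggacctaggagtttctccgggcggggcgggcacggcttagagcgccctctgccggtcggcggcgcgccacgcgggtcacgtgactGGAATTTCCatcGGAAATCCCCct
Icam1, chr9:21015690-21015939, plus strand: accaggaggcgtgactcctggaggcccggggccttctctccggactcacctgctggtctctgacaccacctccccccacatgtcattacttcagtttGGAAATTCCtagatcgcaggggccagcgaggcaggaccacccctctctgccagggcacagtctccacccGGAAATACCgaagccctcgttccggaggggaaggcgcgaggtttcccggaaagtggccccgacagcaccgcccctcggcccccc
Nfkbia carried a consensus match that began 29 bases before the start site, and Tnfaip3 had matches beginning 125 and 12 bases before the first of its listed start sites. Icam1 held the 9-letter form at 153 and at 84 bases and no consensus match. For Tlr2 and Nfkb2, whose windows lie partly or wholly inside the gene as RefSeq draws it, short runs around consensus matches are shown, again with the match in capitals. The Nfkb2 runs lie before the first of its 3 listed start sites, and the windows of the other two held 1 consensus match each.
Tlr2, chr3:83841763-83841789, minus strand: ggacacctGGGGAATTCCCacacggag
Nfkb2, chr19:46304690-46304716, plus strand: atcgtcacGGGAATTCCCCccctcggg
Nfkb2, chr19:46304718-46304736, plus strand: ggccgaaaGGGGCTTTCCc
These are matches of letters, and binding at them was not measured.

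The recovered depth was 31834121 reads in the control, 33886651 in the contralateral and 25930258 in the MCAO library. Each of the 10 genes had between 53 and 966 reads in every library. The contralateral library stood apart. It listed 47 genes at the minimum of 1, against 665 in the control and 583 in the MCAO library, and 771 genes were 2-fold higher in it than in the control but 54 lower. The summed level of 8 male germ cell genes was 8713 normalised counts in it, against 30.1 in the control and 21.0 in the MCAO library. The counts of 2-fold higher genes among the 10, the other pathway genes together and all genes are therefore also given against the control alone. Counts by role, marker list and promoter are not. Astrocyte markers were abundant, with Aldh1l1 at 6381 and Aqp4 at 8837 normalised counts in the control. Neuronal and other markers were present as well, with Snap25 at 49559. In a pull-down from pooled tissue, the number of cells of a type and the RNA per cell cannot be told apart. Nor can RNA of untagged cells carried along, as no library of the whole tissue is among the groups.

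The comparison of the occluded hemisphere with both right hemispheres asked which parts of the pathway differed in the occluded one. Tlr2 had the largest ratios to both right hemispheres. Tlr7, Icam1 and Nfkb2 followed with ratios to the control of 2.62, 2.68 and 2.60, then Tlr4 and Myd88 with 1.93 and 1.91. Tlr3, Nfkb1, Nfkbia and Tnfaip3 lay between 0.815 and 1.13. Tlr2 and Tlr7 exceeded both right hemispheres by 2-fold or more on the log2(value + 5) scale, and Tlr4, Nfkb2 and Icam1 passed that size against 1 of them. That is 2 of 10 genes, beside 2.58% of all genes tested. Against the control alone 4 of 10 passed (Tlr2, Tlr7, Nfkb2 and Icam1), beside 4.12% of all genes, and against the contralateral library 3 of 10 (Tlr2, Tlr4 and Tlr7), beside 3.18%. None was 2-fold lower than both, beside 0.517%. The median log2 difference of the 10 genes was 0.91 relative to the control and 0.64 relative to the contralateral library, where the medians of all tested genes were 0.00 and 0.00. Both comparisons use the same MCAO library.

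**Figure D1:**
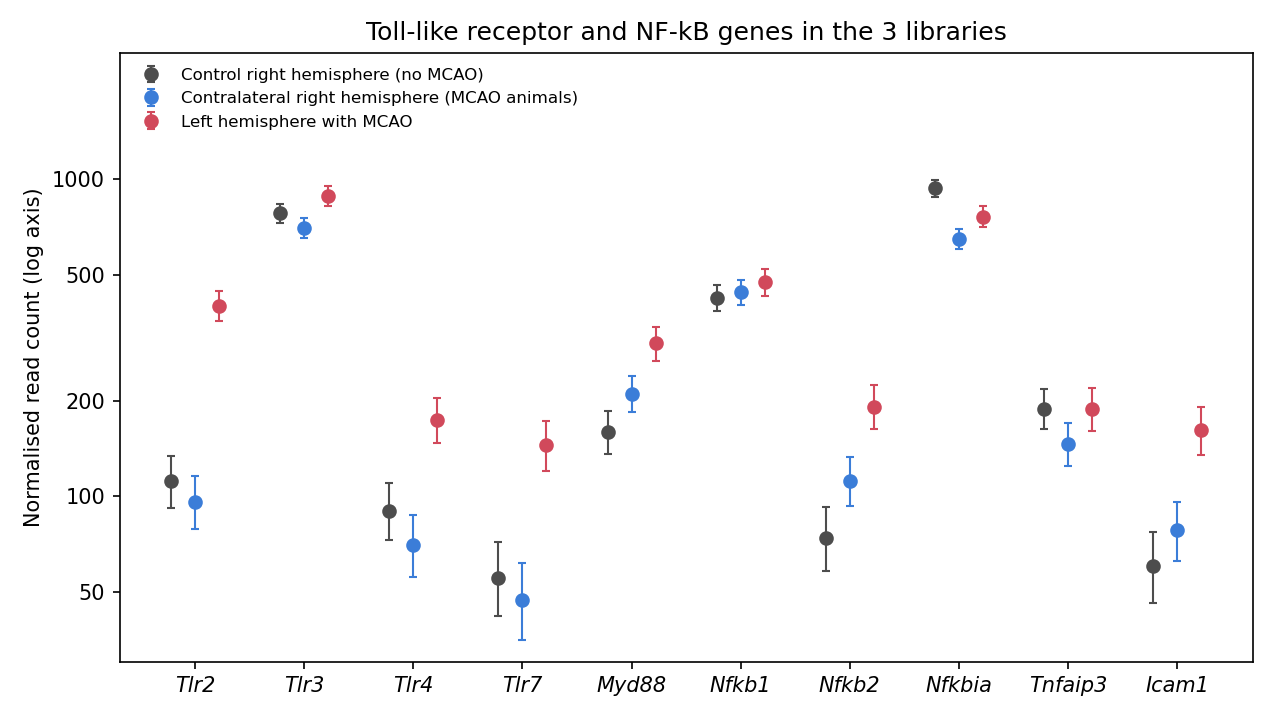
Normalised read counts (log axis) of the 10 genes in the control right (grey), contralateral right (blue) and left MCAO (red) libraries. Bars are exact 95% Poisson intervals and cover counting error only. The MCAO point of Tlr2 (399) lies clear of both right hemispheres (111 and 95.8), while that of Nfkbia (762) lies between them.

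Tlr2, a surface receptor for bacterial lipoproteins (chromosome 3, 83836272 to 83841824), reached 399 normalised counts in the MCAO library, from 111 in the control and 95.8 in the contralateral library. The right hemispheres were close to each other and the MCAO library was far above both. The ratio to the control was 3.58 (95% counting interval 2.89 to 4.46), and that to the contralateral library 4.16 (3.34 to 5.22). Tlr7, an endosomal sensor of single-stranded RNA (chromosome X, 167303380 to 167330574), had 55.2, 47.0 and 145 in control, contralateral and MCAO, the order used from here on. Its ratios to control and contralateral were 2.62 (1.90 to 3.65) and 3.08 (2.21 to 4.33), and the right hemispheres were again the lower ones. Tlr4, the receptor for bacterial lipopolysaccharide (chromosome 4, 66827551 to 66846581), had 90.1, 70.1 and 174. Its 1.93-fold ratio to the control (1.48 to 2.53) was just short of 2-fold, and its ratio to the contralateral value was 2.48 (1.88 to 3.31).

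Tlr3 (chromosome 8, 45395665 to 45411075) stood apart from the other receptors in the size of its difference. It had 782, 701 and 883 normalised counts, a ratio of 1.13 to the control (1.02 to 1.25) and of 1.26 to the contralateral value (1.14 to 1.39). Its intervals overlapped with neither those of Tlr2 nor those of Tlr7 or Tlr4 in either comparison. The MCAO library was the highest of the 3 for all 4 receptors, beside 34.3% of all tested genes. For all 4 the contralateral library was the lowest.

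Myd88, the adaptor shared by most toll-like and interleukin 1 receptors (chromosome 9, 119335934 to 119340018), had 159, 210 and 303 normalised counts. Its order differed from that of the receptors, with the contralateral library above the control by a ratio of 1.32 (1.08 to 1.63). The MCAO library was higher still, with ratios of 1.91 to the control (1.56 to 2.34) and 1.44 to the contralateral library (1.21 to 1.73).

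The NF-kB subunits differed from each other. Nfkb1, which encodes p105 and its product p50 of the canonical dimer (chromosome 3, 135584655 to 135691969), had 422, 440 and 473 normalised counts. Its ratios of 1.12 (0.975 to 1.29) and 1.07 (0.940 to 1.23) had intervals that held 1. Nfkb2, which encodes p100 and its product p52 of the non-canonical pathway (chromosome 19, 46300994 to 46312400), had 73.6, 112 and 192. The values stepped up from control to contralateral to MCAO. The ratios to the control were 1.52 (1.13 to 2.05) for the contralateral and 2.60 (1.97 to 3.47) for the MCAO library. The MCAO value was 1.72-fold the contralateral one (1.35 to 2.18). The intervals of Nfkb2 and Nfkb1 did not overlap in either MCAO comparison.

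The feedback inhibitors were not higher in the MCAO library than in the control, though both were above the contralateral library. Nfkbia (chromosome 12, 55489409 to 55492647) had 936, 648 and 762 normalised counts, so the MCAO value lay between the right hemispheres. It was at 0.815 of the control (0.736 to 0.901) and at 1.18-fold the contralateral value (1.06 to 1.31). Tnfaip3 (chromosome 10, 19000910 to 19015410) had 189, 146 and 188. Its ratio was 0.997 to the control (0.803 to 1.23) and 1.29 to the contralateral value (1.03 to 1.61). Icam1, a leukocyte adhesion molecule and a classical NF-kB target (chromosome 9, 21015940 to 21028814), had 60.0, 78.1 and 161. The MCAO library was highest, by ratios of 2.68 to the control (1.97 to 3.68) and 2.06 to the contralateral library (1.57 to 2.73). On the log2(value + 5) scale the latter difference was 0.9999, just under the 2-fold line. Genes with a consensus match were thus found both among genes above the right hemispheres (Tlr2, Nfkb2 and, by a small margin, Tlr3) and among those within their range (Nfkbia and Tnfaip3).

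**Figure D2:**
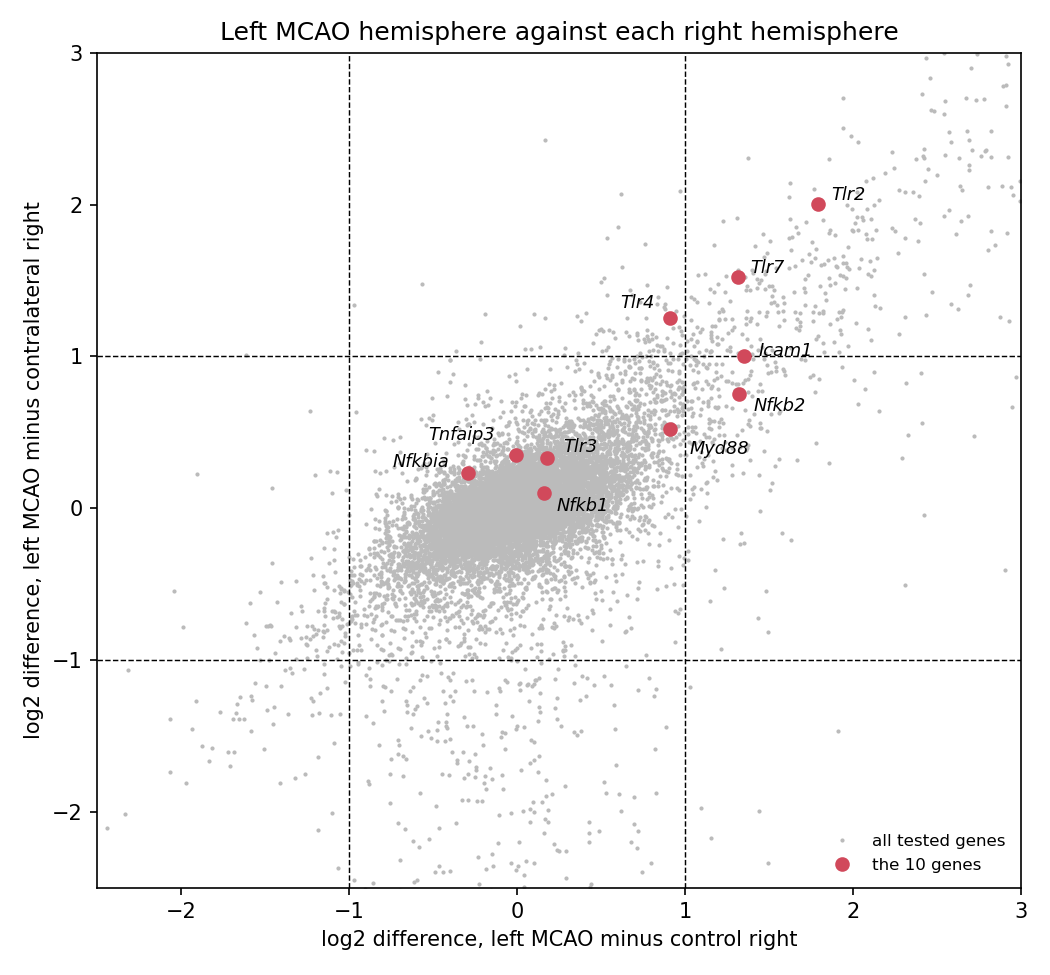
Log2 differences of normalised counts + 5 between the left MCAO hemisphere and the control (horizontal) or contralateral (vertical) right hemisphere, for tested genes (grey) and the 10 genes (red). Dashed lines mark 2-fold, and 508 of the 14906 genes lie outside the axes. Tlr2 and Tlr7 lie in the upper right sector, Icam1 on its lower edge, and Nfkbia, Tnfaip3, Nfkb1 and Tlr3 within the bulk of genes.

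As a yardstick between libraries, the right hemispheres differed from each other by log2 -0.53 (Nfkbia) to 0.57 (Nfkb2) over the 10 genes. For 8 genes the MCAO value lay above both right hemispheres by more than the right hemispheres differed from each other, beside 33.8% of all tested genes that lay outside the right hemispheres by more than their gap in either direction. The exceptions were Nfkbia and Tnfaip3. For Tlr3 and Nfkb1 the margin was small, at 0.18 against 0.16 and 0.10 against 0.06. In the order of the differences from the control, Tlr2 was at or above 98.3% of tested genes, Icam1 97.3%, Nfkb2 97.2%, Tlr7 97.2%, Tlr4 and Myd88 95.3% each, Tlr3 69.9%, Nfkb1 68.5%, Tnfaip3 49.6% and Nfkbia 18.5%.

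The contralateral comparison asked whether the pathway differed on the side without the occlusion. None of the 10 genes was 2-fold higher than in the control, beside 5.17% of all genes, and none was 2-fold lower, beside 0.362%. By any size, 4 genes were higher and 6 lower, and the ratio's interval held 1 for 5 of the 10. The 4 higher were Myd88, Nfkb1, Nfkb2 and Icam1, the last at a ratio of 1.30 (0.929 to 1.83). Nfkbia was at 0.692 of the control (0.628 to 0.763) and Tnfaip3 at 0.775 (0.626 to 0.959). Only 3.14% of tested genes had a difference at or below that of Nfkbia. The inducible inhibitor gene Nfkbiz, which encodes IkB-zeta, had 104, 68.3 and 120 normalised counts and a contralateral ratio of 0.659 (0.485 to 0.892). It was picked after its value was seen, and the inhibitor list as a whole was not lower. Over the 10 tested inhibitor genes other than Nfkbia and Tnfaip3, Nfkbiz included, the median log2 difference was 0.02. None of these 10 was 2-fold lower. In the same comparison the summed markers of endothelium were at 0.752 of the control, those of mural cells at 0.808, of oligodendrocytes at 0.831, of neurons at 0.871, of microglia at 1.02, of astrocytes at 1.04, of neutrophils at 1.27 and of macrophages at 1.38. The part of these cells in the result was not tested.

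The rest of the pathway was read from 10 lists of genes by role, with 105 genes beside the 10. Of these 81 were tested, 11 were below the filter and 13 were not analysed here. In all, 16 of the 81 passed 2-fold upwards against both right hemispheres and none downwards, beside 2.58% and 0.517% of all genes. Some of the 16, such as Ccl2, Tlr1, Ikbke, Bcl3 and Cxcl10, passed the filter on low values only through the MCAO library, so the count is a description only. With a mean of at least 50 it was 11 of 67, but that mean includes the MCAO library too. Bcl3 and Cd180 were among the 11 and reached it only through their MCAO values. A consensus kB match was found in 14 of the 69 with a promoter. Of the 16 higher genes 12 had a promoter, and 1 of them (Cxcl10) had a match, which is 8.33% beside 5.61% of all tested genes with a promoter. These shares were not tested against each other.

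Among the other toll-like receptors, 2 of 4 tested were 2-fold higher than in both right hemispheres, beside 2.58% of all genes. That share stands beside every such count by role below. Of the 2, Tlr1 passed the filter on low values only through the MCAO library. Tlr13, a sensor of bacterial ribosomal RNA, had 35.8, 68.3 and 178 normalised counts, 4.96-fold the control (3.44 to 7.31). Tlr1, which pairs with Tlr2, had 4.84, 11.5 and 56.5, but rests on 5 control reads and can share reads with its close relative Tlr6. Tlr9, the sensor of unmethylated DNA, had 24.2, 20.4 and 48.2, a ratio of 1.99 to the control (1.18 to 3.42), and Tlr12 had 41.6, 30.2 and 47.1. Tlr5, Tlr6 and Tlr8 were below the filter, with 10.6, 8.23 and 12.9 in the MCAO library, and Tlr11 was not analysed here. No toll-like receptor that was tested was lower in the MCAO hemisphere than in either right hemisphere.

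Among co-receptors and chaperones 4 of 8 were 2-fold higher than in both. Cd14, which hands lipopolysaccharide to Tlr4, had 49.4, 61.2 and 438 normalised counts, 7.15-fold the contralateral value (5.52 to 9.38) and 8.86-fold the control. Cd180, a Tlr4 relative, had 20.3, 29.3 and 223, 7.63-fold the contralateral value (5.25 to 11.4) with a log2 difference of 3.17 from the control, and its partner gene Ly86 had 110, 103 and 263. Unc93b1, which carries Tlr3, Tlr7 and Tlr9 to endosomes, had 354, 342 and 935 and was 2.64-fold the control (2.33 to 2.99). Ly96, the MD-2 partner of Tlr4, was below the filter at 12.6, 16.0 and 25.9. The general chaperone gene Hsp90b1 had 10480, 12061 and 13158.

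Of 17 other adaptors and proximal kinases only Irak4, the first kinase bound by MyD88, was 2-fold higher than in both, at 67.8, 66.5 and 148 normalised counts. The list's median with Myd88 was -0.04 relative to the control and -0.06 relative to the contralateral library. Ticam2, the adaptor that links Tlr4 to TRIF, had 20.3, 18.6 and 44.7, and Ticam1, encoding TRIF, had 258, 280 and 280. Tirap, which bridges Tlr2 and Tlr4 to MyD88, had 113, 108 and 109. The kinase genes Irak1 and Irak2 had 1422 and 801 in the MCAO library against 1447 and 931 in the control. The ubiquitin ligase gene Traf6 had 708, 699 and 579, and Traf3 had 2050, 2198 and 2141. Map3k7, encoding the kinase TAK1, had 1830, 1820 and 1744, and its partners Tab1, Tab2 and Tab3 had ratios to the control of 1.11, 1.18 and 0.833. The damping genes Tollip and Sarm1 were at 0.851 and 0.918 of the control, and the ligase genes Peli1 and Peli2 at 0.877 and 0.998. Irak3, an inhibitor of the cascade, had 28.1, 63.9 and 18.8, so that it was highest in the contralateral library, at 2.27-fold the control (1.46 to 3.63). Sigirr was not analysed here.

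Of 7 IkB kinase genes tested, only the interferon-linked kinase gene Ikbke was 2-fold higher than in both, at 10.7, 15.1 and 41.2 normalised counts. The catalytic subunit genes Chuk and Ikbkb had ratios to the control of 1.31 and 1.23, and the scaffold gene Ikbkg was at 0.949. Among the subunits, Rela, the main transactivating partner of p50, had 994, 1055 and 1209, a ratio of 1.22 to the control (1.11 to 1.33). Relb, the partner of p52, had 185, 192 and 265, a ratio of 1.43 (1.17 to 1.74). Rel was below the filter, at 19.4, 7.10 and 5.88. Thus 4 of the 5 subunit genes were highest in the MCAO library, beside 34.3% of all tested genes above both right hemispheres. Rel was highest in the control. Among the 4, Nfkb1 had intervals that held 1, and only Nfkb2 passed 2-fold, against the control.

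Of 10 other inhibitors 1 was 2-fold higher than in both. This was Bcl3, an atypical IkB protein that binds p50 and p52 in the nucleus, with 5.81, 11.5 and 152 normalised counts, 26.1-fold the control (11.7 to 72.5) on 6 control reads. Nfkbie had 127, 119 and 180, a ratio of 1.42 to the control (1.12 to 1.81), and Nfkbib and Tnip1 had ratios of 1.12 each. Of 13 other NF-kB targets 2 were higher than in both, the chemokine genes Ccl2, at 1.94, 1 (the listed minimum) and 62.3, and Cxcl10, at 5.81, 10.6 and 95.3. Both passed the filter on low values only through the MCAO library. The cytokine gene Il1b was below the filter, at 1, 10.6 and 8.23. Vcam1, another adhesion molecule gene, had 2271, 2138 and 2485 normalised counts, a ratio of 1.09 to the control (1.03 to 1.16). Tnf, Il6, Cxcl1, Sele and 4 more targets were not analysed here.

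**Figure D3:**
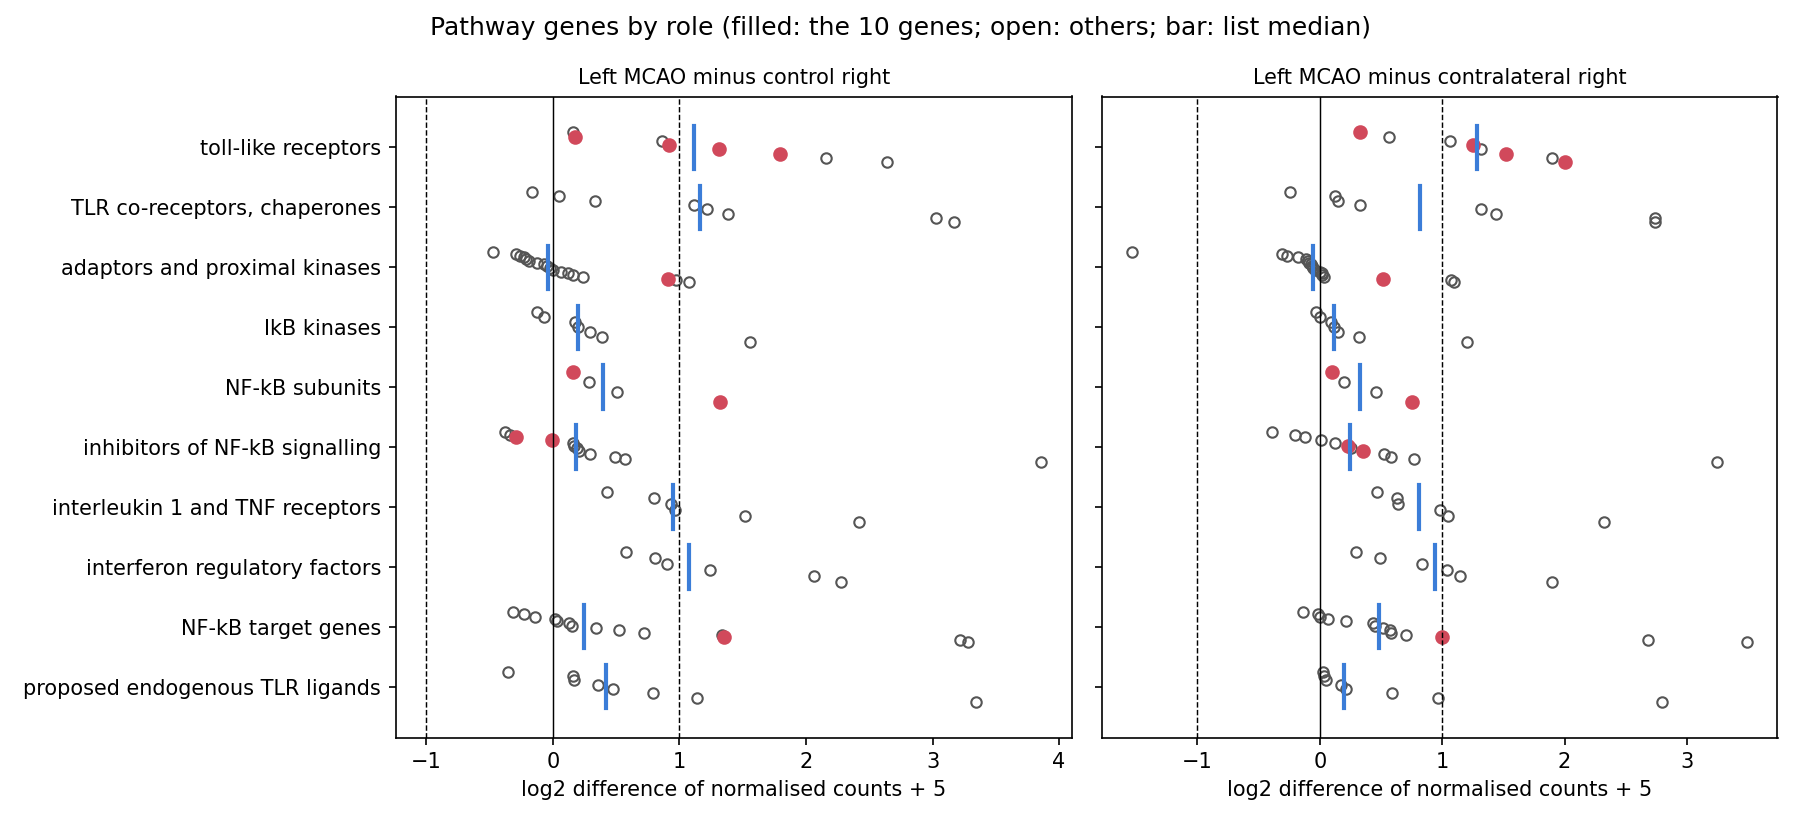
Log2 differences of normalised counts + 5 for the tested genes of 10 role lists, left MCAO against the control (left panel) and contralateral (right panel) right hemisphere. Filled points are the 10 genes, open points other members, blue bars list medians and dashed lines 2-fold. The medians of the toll-like receptor list (1.11 and 1.29) lie beyond the 2-fold line, and those of the adaptor list (-0.04 and -0.06) near 0.

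Receptors of other cytokines that feed NF-kB were tested for 6 genes. Of these, the TNF receptor gene Tnfrsf1a (535, 744 and 1540 normalised counts) and the TWEAK receptor gene Tnfrsf12a (73.6, 79.0 and 415) were 2-fold higher than in both right hemispheres. Of 6 interferon regulatory factors, Irf7 (13.6, 35.5 and 84.7) and the myeloid factor Irf8 (110, 124 and 476) were. Of 8 proposed endogenous ligands only Fn1, encoding fibronectin, was, at 115, 171 and 1217. Among the 90 other tested genes of these lists, the one whose pair of log2 differences lay nearest to that of Tlr2 over the 3 libraries was Irf8, at a distance of 0.29, followed by Tlr7 (0.68) and Unc93b1 (0.70). With 3 libraries such likeness is weak, since 24 of all tested genes lay as near as Irf8.

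Most tested markers of myeloid cells were higher in the MCAO library, as the receptors were. The summed level of 15 microglia markers was 11437, 11681 and 35088 normalised counts, 3.07-fold the control. Of the 15, 12 were 2-fold higher than in both right hemispheres, beside 2.58% of all genes. Cx3cr1 had 1591, 1184 and 3464, whereas P2ry12 had 405, 382 and 418. The summed level of 9 macrophage markers was 384, 528 and 3816, 9.95-fold the control. Of 7 tested markers 5 were 2-fold higher than in both, beside the same 2.58%. Of the 5, Msr1 (4.84, 5.32 and 519) passed the filter on low values only through the MCAO library. Lgals3 (32.0, 42.6 and 1628) was the largest part of the MCAO sum. Mrc1 (64.9, 89.6 and 125) and Cd163 (65.9, 88.7 and 69.4) were not among the 5. Ccr2 was below the filter, at 8.72, 13.3 and 12.9. None of the microglia markers was at the listed minimum in any library. Of 8 neutrophil markers 2 were in the table, Csf3r at 81.4, 96.7 and 314 and S100a9 at 5.81, 14.2 and 16.5. Against the control, Tlr2 (3.58, interval 2.89 to 4.46) lay above the summed microglia markers, whose ratio its interval held. Tlr7 (2.62, 1.90 to 3.65) lay below them, but its interval held their ratio as well. Tlr4 (1.93, 1.48 to 2.53) lay below them with its whole interval. Against the contralateral library the microglia sum had a ratio of 3.00. There Tlr2 lay above it with its whole interval (4.16, 3.34 to 5.22). Tlr7 was near it (3.08, 2.21 to 4.33) and Tlr4 below it (2.48, 1.88 to 3.31), but both intervals held 3.00. The summed levels of the other lists had ratios to the control of 1.26 (oligodendrocyte), 1.19 (endothelium), 0.946 (mural), 0.940 (astrocyte) and 0.837 (neuron), beside 1.13 for Tlr3. For Icam1 (2.68), the endothelial markers had 848, 638 and 1010 in sum. Against the contralateral library Icam1 had a ratio of 2.06 (1.57 to 2.73), and the endothelial sum one of 1.58, which that interval held. None of 9 tested endothelial markers was 2-fold higher than in both right hemispheres. None of the 14 astrocyte markers was either. The part of each cell type in the differences of the 10 genes was not tested.

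**Figure D4:**
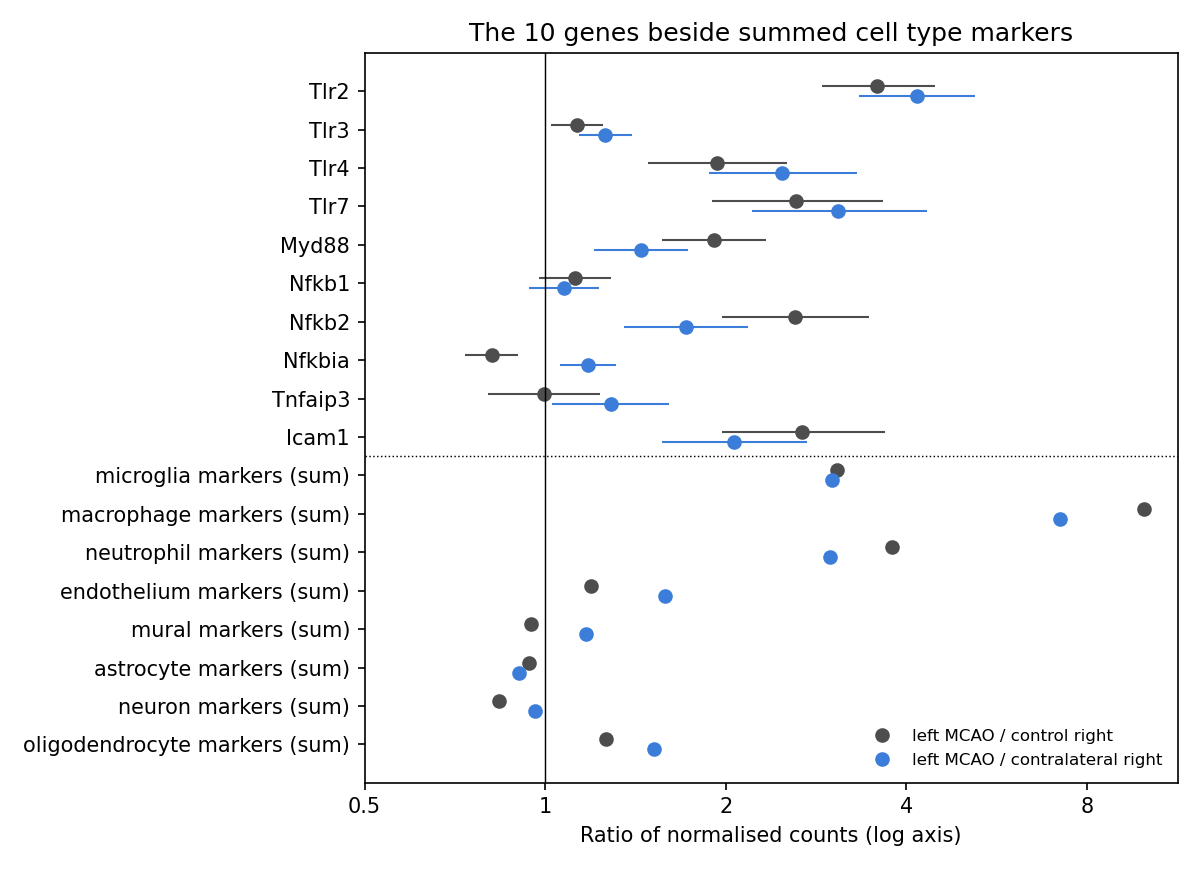
Ratios of normalised counts (log axis) of the left MCAO hemisphere to the control (grey) and contralateral (blue) right hemisphere, for the 10 genes with 95% counting intervals and for summed marker lists of 8 cell types. Microglia markers lie near 3 in both comparisons (3.07 and 3.00), between Tlr7 and Tlr2 against the control and below both against the contralateral library. The astrocyte sum lies near 1 (0.940 and 0.905), and single markers are not shown.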

How the data were processed

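The authors deposited 1 table of gene symbols by library. Its values are a signal, namely counts of reads scaled with 1 size factor for each library, with values below 1 listed as 1. Per the submitters' processing notes, the tools were HISAT2 2.0.11, DESeq2, R 3.3.1, Partek 6.6 and CASAVA 1.8 and the build was mm10, with no roles, and strand is not given in the sources used here. Reads of antisense or overlapping genes and of close relatives (Tlr1 and Tlr6) may be mixed. The design text states 2 technical replicates per pool, which the table holds as 1 column.

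With Python 3.11.15 and SciPy 1.17.1, whole reads were recovered from the value of 1 read in each column (0.969, 0.887 and 1.18 normalised counts for control, contralateral and MCAO). In each column 99.9% of values above 1 were whole within 0.1 read. A value listed at 1 was taken as 1 read where 1 read was worth less than 1, and as 0 reads in the MCAO library. Genes whose mean over the libraries was 20 or more were compared as log2(value + 5), a scale on which changes of low genes come out too small. Ratios carry no pseudocount. Their 95% intervals (Clopper-Pearson, exact, on reads) hold counting error alone, and PCR copies among reads were not marked by molecular identifiers. Levels were not compared between genes, as no transcript lengths were used. Gene coordinates are RefSeq's for GRCm38.p6. The scripts were tested on simulated data.

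The 10 genes and all lists were chosen with earlier results of these data known. Genes named are the 10, up to 4 others per list by size among those 2-fold different from both right hemispheres, all other receptors, adaptors and subunits, the first markers of a list, and the nearest genes to the member with the largest difference. Others (Hsp90b1, Chuk, Ikbkb, Ikbkg, Ly96, Nfkbiz, Nfkbie, Nfkbib, Tnip1, Il1b, Vcam1, Csf3r) were chosen after their values were seen.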

Additional observations from a re-analysis of the deposited data

How the results depend on the processing

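No paired analysis was possible because each group had 1 library, and no replicate could be left out. Upward differences of 2-fold or more of the MCAO library from both right hemispheres numbered 2 among the 10 genes, 16 among other pathway genes and 384 in all. With a 1.5-fold threshold they were 5 (Tlr4, Nfkb2 and Icam1 added), 25 and 727, and with a 3-fold threshold 1 (Tlr2), 9 and 200. Against the control alone, an alternative chosen after seeing the data, they were 4, 20 and 614. Against the contralateral library alone, also chosen afterwards, 1 other pathway gene (Irak3) was 2-fold lower. Icam1 crossed 2-fold against both with a pseudocount of 1 (log2 difference of 1.04 from the contralateral library), with none and with scaling to astrocyte markers, and the count of the 10 genes was then 3. That scaling moved the median of all genes by log2 -0.13 against the control, 0.06 against the contralateral library and -0.19 between the right hemispheres. Under other pseudocounts and scalings, 148 of 150 recomputed differences of the 10 genes moved by less than the half-width of their counting interval. The other 2 were the contralateral differences of Tlr3 and Nfkbia under that scaling, at -0.34 and -0.71. The sign changed for 2, Tnfaip3 against the control under scaling to the recovered totals (0.01) and Nfkb1 between the right hemispheres under the astrocyte scaling (-0.13). Depth limits Tlr7 and Icam1 most among the 10, with 53 to 88 reads in the right hemispheres.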

Other observations

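Among all 384 genes whose MCAO value exceeded both right hemispheres by 2-fold or more, 283 had a RefSeq promoter, and 6.71% of these held the NF-kB consensus within 250 bases before a start site. Among all 11328 tested genes with a promoter the share was 5.61%. For the 9-letter form the shares were 21.9% and 20.6%. These are counts of letters, without a test.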
